A study of Mus musculus with 6 samples.

Results

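Tissue macrophage markers were analysed in the RNA-seq of dental pulp from WT and Mmp13-/- mice. The set holds 10 genes, Adgre1, Csf1r, Cd68, Mrc1, Cd163, Cx3cr1, Aif1, Fcgr1, Mertk and Lyve1, which were found by gene symbol among the 53342 genes of the deposited table. All 10 were detected in every sample and all were among the 24534 genes that passed the filter on low counts. The samples were 3 WT and 3 Mmp13-/- pulps from mice of strain C57BL/6 aged 3 months, and male mice were used. Mmp13 codes for matrix metalloproteinase-13, a collagenase, and the homozygous deletion was present in all cells of the animal, so it was not restricted to the pulp or to macrophages. On tooth type and RNA extraction the sources differ, with molars and the RNeasy kit in the protocols of the labels but incisors and TRIzol in the methods, and sample titles name the tooth for WT only.

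Macrophages are phagocytes that reside in nearly all tissues, where they clear dying cells, take up antibody-coated particles and respond to injury. Their survival depends on signalling through the receptor that Csf1r codes for, and their surface receptors differ between settings: the mannose receptor, the haemoglobin scavenger receptor and LYVE1 mark cells along blood vessels, whereas the fractalkine receptor is high on monocytes and on other resident cells. In the dental pulp, resident macrophages lie around vessels and near the odontoblasts, the cells that form dentine. Bulk RNA from a tissue cannot tell fewer cells of a type apart from less RNA per cell, and this applies to every value below.

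Levels are given as CPM, the count of a gene scaled to a common library total after TMM scaling, a correction for differences in library composition. Totals ranged from 28442936 to 29980236 counts in WT and from 21561420 to 26547121 in Mmp13-/-, and 3 counts, taken as the floor of detection, came to at most 0.173 CPM. The WT samples held 30.1 to 39.1 CPM of Mmp13 and Mmp13-/- samples 0.322 to 2.33 CPM, in the direction of the labels. Mmp13-/- sample 6 stood apart from the other samples. Transcripts of 13 genes with a common repeat sequence took 46.1% of its counts, against 5.87% and 10.3% in Mmp13-/- samples 1 and 2 and at most 0.0445% in WT, and odorant and vomeronasal receptor genes, which pulp is not known to use, summed to 1196 CPM against 307.5 to 355.5 and 17.8 to 20.8 CPM. A gene was called when edgeR's quasi-likelihood test gave a Benjamini-Hochberg adjusted p under 0.05 over all genes tested and its change was over 2-fold. With these criteria 30.1% of the tested genes were called, 20.4% as higher and 9.68% as lower in Mmp13-/-. The calls were 5006 higher and 2375 lower, and 5867 higher and 1338 lower with upper-quartile in place of TMM scaling.

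Of the 10 markers, 5 were called as higher in Mmp13-/- and 0 as lower, beside 20.4% and 9.68% of all tested genes. Adgre1, Mrc1, Cd163, Aif1 and Fcgr1 rose between 2.17-fold and 3.60-fold. At any fold the same 5 passed as higher and 0 as lower, beside 27.3% and 24.3% of all genes, or 51.6% in either direction. Fitted log2 fold changes were above 0 for 10 of 10 markers, beside 53.9% of all genes, and their median was 0.96 against 0.10 for all genes. With no filter on low counts the order of these medians turned, with 0.83 for the markers and 1.30 for all genes, and in the study's procedure they were 0.85 and 0.649. For 6 markers every Mmp13-/- sample lay above every WT sample, beside 31.8% of all genes, and for 0 every sample lay below, beside 29.1%, or 60.9% for a separation in either direction. DESeq2 called the same number over 2-fold, beside 20.8% of genes, and passed 6 at any fold, beside 27.7%. Csf1r, Cd68, Mertk and Lyve1 had changes between 0.33 and 0.79 on the log2 scale that missed the threshold, and Cx3cr1 was at 0.03.

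**Figure D1:**
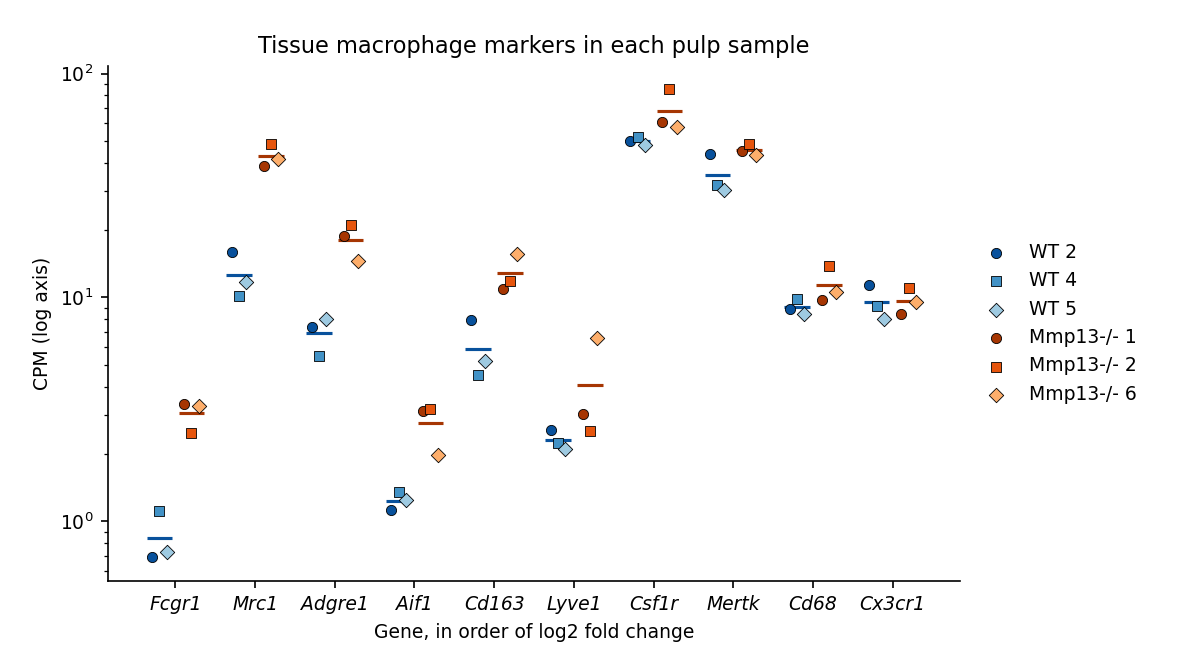
CPM of the 10 markers (log axis) in each WT (blue) and Mmp13-/- (orange) sample, with the bar at the mean of the genotype and genes in order of their log2 fold change. The genotypes are separate for Fcgr1, Mrc1, Adgre1, Aif1, Cd163 and Csf1r and overlap for Lyve1, Mertk, Cd68 and Cx3cr1.

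Scavenger and adhesion receptors were considered first. Mrc1 codes for the mannose receptor CD206, which takes up glycoproteins, and lies at chr2:14229392-14332057 on the plus strand (build GRCm38). WT samples 2, 4 and 5 held 15.97, 10.1 and 11.8 CPM, and the level in Mmp13-/- samples 1, 2 and 6 was 38.8, 48.3 and 41.5 CPM, and values of other genes are in the same order. The lowest Mmp13-/- sample was thus far above the highest WT sample. The mean rose from 12.6 ± 3.01 to 42.9 ± 4.87 CPM (SD, n = 3 each), a log2 fold change of 1.76 ± 0.19 (SE) with an adjusted p of 0.000128 by edgeR's quasi-likelihood test. This was the smallest adjusted p of the set, and the change was larger than that of 86.7% of all tested genes.

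Cd163, at chr6:124304656-124330527 on the plus strand, codes for the scavenger receptor that binds haemoglobin and haptoglobin. Its level was 7.97, 4.50 and 5.18 CPM in WT and 10.9, 11.9 and 15.6 CPM in Mmp13-/-. The genotypes did not overlap, with WT sample 2 highest in WT and Mmp13-/- sample 6 highest of all. This gave a log2 fold change of 1.12 ± 0.24 (SE), from 5.88 ± 1.84 to 12.8 ± 2.47 CPM (SD, n = 3 each), with an adjusted p of 0.00344 by edgeR. It was 0.92 without WT sample 4, 0.96 without WT sample 5 and 0.96 without Mmp13-/- sample 6, and each passed the test but not the 2-fold limit, which left 4 markers called. Without Mmp13-/- sample 6 these 4 stood beside 19.7% of all genes, and 6 passed at any fold, beside 27.5%.

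Adgre1 codes for F4/80, the adhesion receptor most used to identify mouse macrophages, and lies at chr17:57358691-57483527 on the plus strand. Its level was 7.36, 5.48 and 8.03 CPM in WT and 18.9, 21.0 and 14.5 CPM in Mmp13-/-. Sample 6 was the lowest of the Mmp13-/- samples and still stood above all WT samples. The log2 fold change was 1.38 ± 0.20 (SE), from 6.96 ± 1.33 to 18.1 ± 3.31 CPM (SD, n = 3 each), with an adjusted p of 0.000443 by edgeR.

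Fcgr1, at chr3:96282909-96293969 on the minus strand, codes for CD64, the high-affinity receptor for the constant part of IgG. It had the largest change of the set and the lowest WT level, at 0.690, 1.11 and 0.728 CPM in WT and 3.34, 2.49 and 3.29 CPM in Mmp13-/-. No samples of different genotype overlapped. Its log2 fold change was 1.85 ± 0.32 (SE, 95% interval 1.15 to 2.55), from 0.844 ± 0.235 to 3.04 ± 0.477 CPM (SD, n = 3 each), with an adjusted p of 0.00107 by edgeR.

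Aif1 codes for IBA1, a calcium-binding protein of the macrophage cytoskeleton, and lies at chr17:35170991-35176068 on the minus strand. Its level was 1.13, 1.35 and 1.24 CPM in WT and 3.12, 3.18 and 1.97 CPM in Mmp13-/-, with sample 6 nearest to WT but no overlap. The log2 fold change was 1.16 ± 0.30 (SE, 95% interval 0.50 to 1.83), from 1.24 ± 0.110 to 2.76 ± 0.680 CPM (SD, n = 3 each), with an adjusted p of 0.00852 by edgeR. Without Mmp13-/- sample 2 it fell just under the 2-fold limit, with an adjusted p of 0.0444, which also left 4 markers called.

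The transcription factor PU.1, coded by Spi1, is known to set the myeloid programme through sites of the ETS family with a purine-rich core. Promoter sequences of 7 markers were found in RefSeq (GRCm38.p6), those of Mrc1, Fcgr1, Cd163, Cd68, Aif1, Mertk and Cx3cr1, each with 250 bases before and 50 after the start site. They were searched on both strands for GAGGAAGT and for its core GAGGAA, whose reverse complement is TTCCTC, so each match to the longer motif is also a match to the core. The core was present in 4 of 7 marker promoters, beside 28.3% of 32851 promoters of the same length, and the longer motif in 0 of 7, beside 3.2%. Among the 4 genes with a match, Mrc1, Fcgr1 and Aif1 were called in the comparison and Cd68 was not, and among the 3 without a match, Cd163 was called and Mertk and Cx3cr1 were not. The 250 bases upstream are shown for the 3 called genes with a match, in the direction of the gene from 5′ to 3′, with the core in capitals. Mrc1 (chr2:14229164-14229413, plus strand) has matches that begin at -180, -167 and -35 from the start site. The match of Fcgr1 (chr3:96293970-96294219, minus strand) begins at -55 and that of Aif1 (chr17:35176053-35176302, minus strand) at -7. Start sites here are those of RefSeq. GENCODE, used for the gene positions, starts Aif1 at 35176068, so the match of Aif1 lies inside the gene as placed there. GENCODE also starts Mrc1 further upstream, at 14229392, and the matches of Mrc1 lie upstream of that as well. All matches shown are in the TTCCTC direction, and a match is a description of the letters, not evidence of binding.
Mrc1: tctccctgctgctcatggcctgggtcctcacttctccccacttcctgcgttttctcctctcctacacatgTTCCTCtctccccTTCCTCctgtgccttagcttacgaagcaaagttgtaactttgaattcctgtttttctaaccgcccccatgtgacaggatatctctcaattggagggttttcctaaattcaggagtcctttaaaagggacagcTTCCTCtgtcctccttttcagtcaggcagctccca
Fcgr1: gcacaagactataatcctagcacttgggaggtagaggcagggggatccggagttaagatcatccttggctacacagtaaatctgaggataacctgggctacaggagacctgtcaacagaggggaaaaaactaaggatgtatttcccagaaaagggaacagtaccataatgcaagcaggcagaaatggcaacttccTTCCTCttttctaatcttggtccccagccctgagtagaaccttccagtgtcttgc
Aif1: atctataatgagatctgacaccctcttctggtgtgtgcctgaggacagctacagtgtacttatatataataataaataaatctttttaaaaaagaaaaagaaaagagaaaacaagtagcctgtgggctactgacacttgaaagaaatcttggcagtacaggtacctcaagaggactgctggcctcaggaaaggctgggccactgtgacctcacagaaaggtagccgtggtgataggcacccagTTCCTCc

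Among the receptors for growth and guidance signals, Csf1r codes for the tyrosine kinase receptor of CSF1 and IL34 and was the marker with the highest CPM. Its level was 49.8, 52.1 and 47.9 CPM in WT and 60.8, 85.0 and 57.4 CPM in Mmp13-/-. Every Mmp13-/- sample was above every WT sample, and Mmp13-/- sample 2 was far above the other samples of its genotype. Csf1r had a log2 fold change of 0.44 ± 0.17 (SE, 95% interval 0.06 to 0.82), with an adjusted p of 0.051 by edgeR. Without Mmp13-/- sample 2 it was 0.19 with an adjusted p of 0.402, and without Mmp13-/- sample 6 it was 0.55 with an adjusted p of 0.0144. Of the exon bases of Csf1r, 15.1% are shared with Hmgxb3 on the opposite strand. Whether the counting used strand is not given in the sources used here, so reads of the shared part cannot be assigned between these genes.

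Mertk codes for a receptor tyrosine kinase that binds dying cells through the bridging proteins GAS6 and protein S. Its level was 43.9, 31.7 and 30.3 CPM in WT and 45.0, 48.4 and 43.2 CPM in Mmp13-/-. The genotypes overlapped only through WT sample 2, which exceeded the lowest Mmp13-/- sample. The log2 fold change of 0.37 ± 0.17 (SE) had an adjusted p of 0.0868 by edgeR, and the 95% interval reached 0.74.

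Cx3cr1 codes for the receptor of the chemokine fractalkine. Its level was 11.4, 9.20 and 7.99 CPM in WT and 8.46, 11.02 and 9.59 CPM in Mmp13-/-, and the samples of the genotypes were interleaved. Cx3cr1 had a log2 fold change of 0.03 ± 0.19 (SE), with an adjusted p of 0.921 by edgeR. Its 95% interval from -0.39 to 0.44 leaves out a change over 2-fold in either direction, and the sign of the fitted change turned negative under some of the alternative settings. Exons of Cx3cr1 share 1.73% of their bases with Gm33858 on the opposite strand.

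Cd68 codes for a glycoprotein of the lysosome that is abundant in all phagocytes. Its level was 8.87, 9.88 and 8.40 CPM in WT and 9.72, 13.8 and 10.6 CPM in Mmp13-/-. Mmp13-/- sample 1 lay below the highest WT sample, and the others lay above it. The log2 fold change was 0.33 ± 0.18 (SE, 95% interval -0.07 to 0.72), with an adjusted p of 0.148 by edgeR.

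Lyve1 codes for a receptor for hyaluronan found on perivascular macrophages and on lymphatic endothelium. Its level was 2.56, 2.24 and 2.11 CPM in WT and 3.01, 2.54 and 6.59 CPM in Mmp13-/-. Sample 6 was more than the sum of the other 2 Mmp13-/- samples, and sample 2 lay within the WT range. Lyve1 had a log2 fold change of 0.79 ± 0.35 (SE, 95% interval 0.00 to 1.58), with an adjusted p of 0.086 by edgeR. It was 0.28 with an adjusted p of 0.364 without Mmp13-/- sample 6, and 0.98 with an adjusted p of 0.0324 without Mmp13-/- sample 2. The coefficient of variation within Mmp13-/- was 54.7% for Lyve1 and 5.77% to 24.7% for the other markers. Of 6 lymphatic endothelial markers, 1 was called as higher, beside 20.4% of all genes. This was Mmrn1, with a log2 fold change of 2.57 ± 0.18 (SE), and the median of the list was 0.10.

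Changes over all genes followed the GC content of the transcripts, and the level of unexpected reads differed by genotype, so both were set beside the markers. When the genes above that level were put into 10 groups by GC content, the median log2 fold change fell with GC. It went from 0.80 in the group with the lowest GC to -1.12 in the group with the highest. GC content of the markers ran from 43.4% for Mrc1 to 54.5% for Csf1r, and 10 of 10 were above the median of the group that spans their GC content. Aif1, Fcgr1 and Lyve1 lay below the level required and so were not in the groups themselves. The share of all genes above the median of such a group was not determined. Once GC content was corrected for, 6 markers were called as higher, beside 16.3% of all genes, and 8 passed at any fold, beside 23.7%. Csf1r then had a log2 fold change of 1.10 (adjusted p = 0.000915 by edgeR) and Cd68 of 0.86 (adjusted p = 0.00539 by edgeR). Mertk had 0.49 (adjusted p = 0.0317 by edgeR), whereas Cx3cr1, at 0.34, and Lyve1, at 0.74, did not pass. Fcgr1 moved from 1.85 to 2.29 and Mrc1 from 1.76 to 1.40.

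Counts of the markers were 4.58 to 2670 times the background rate per kilobase of exon that odorant and vomeronasal receptor genes showed in the same sample. All the lowest multiples were in Mmp13-/- sample 6, with 4.58 for Fcgr1, 4.65 for Aif1, 7.68 for Cx3cr1 and 8.15 for Lyve1. With this background subtracted, 5 markers were called as higher, beside 16.2% of all genes, and 8 passed at any fold, beside 25.1%. Fcgr1 stayed at 1.85 and Mrc1 was at 1.91. With both steps together 6 markers were called, beside 11.2%, and 8 passed at any fold, beside 19.1%. The part of GC content and background reads in the changes was not tested beyond these fits, and since both differ between the genotypes they cannot be told apart from genotype.

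**Figure D2:**
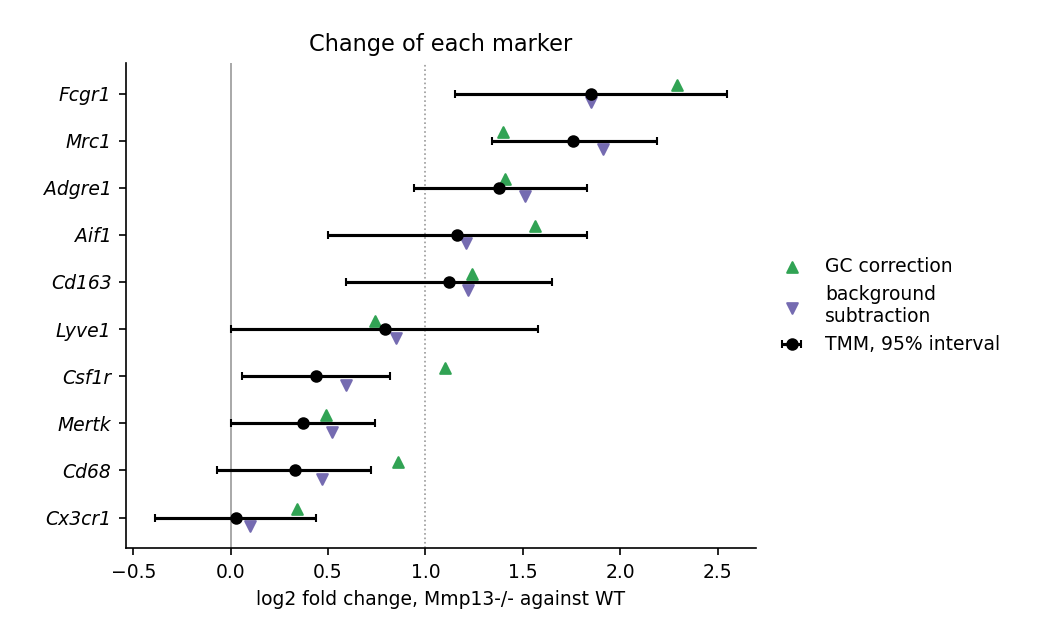
Log2 fold change of each marker, Mmp13-/- against WT, with the 95% interval of the edgeR fit (black), after GC correction (green) and after background subtraction (purple). The dotted line marks a 2-fold change; Csf1r and Cd68 move most with GC correction, to 1.10 and 0.86.

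Per kilobase of exon, the order of the markers in WT began with Csf1r at 8.65 CPM per kb, Mertk at 8.13 and Cd68 at 7.20. The samples of these 3 overlapped with their neighbours in the order. Below a gap without overlap came Adgre1 at 2.15, Cx3cr1 at 2.11 and Mrc1 at 1.98 CPM per kb, which overlapped among neighbours. Another gap separated these from Cd163 at 1.08, Aif1 at 0.808 and Lyve1 at 0.789, and Fcgr1 was lowest at 0.326, below the range of Lyve1. In Mmp13-/- the same 3 genes led, with Csf1r at 11.7, Mertk at 10.5 and Cd68 at 9.03 CPM per kb. Mrc1 stood next at 6.73 and Adgre1 at 5.59, both separate from Cd68 above and from Cd163, at 2.35, below. Cx3cr1 was at 2.15, Aif1 at 1.80, Lyve1 at 1.39 and Fcgr1 at 1.17, each overlapping with the next. Mrc1 thus stood below Cx3cr1 in WT, where their ranges overlapped, and above it in Mmp13-/-, where they did not.

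Ratios between markers within a sample do not depend on the library size. For Mrc1 per Cx3cr1 count, WT gave 1.40, 1.10 and 1.47 and Mmp13-/- gave 4.59, 4.38 and 4.33. The Mmp13-/- samples were close to each other in this ratio, sample 6 included. Mrc1 per Csf1r count was 0.321, 0.195 and 0.245 in WT and 0.638, 0.568 and 0.723 in Mmp13-/-, and Adgre1 per Csf1r count was 0.148, 0.105 and 0.168 against 0.310, 0.247 and 0.252. Aif1 and Fcgr1 were also higher per Csf1r count in every Mmp13-/- sample, whereas Cd163, Lyve1, Mertk, Cd68 and Cx3cr1 per Csf1r count overlapped between the genotypes. Cd163 per Mrc1 count was lower, at 0.499, 0.445 and 0.441 in WT and 0.282, 0.246 and 0.376 in Mmp13-/-. A two-sided exact permutation test of 3 against 3 samples cannot give a p below 0.1, so these ratios are given without a test. They rest on counts without GC correction, which moves the genes unequally. After it the log2 fold changes were 1.40 for Mrc1, 1.41 for Adgre1, 1.24 for Cd163 and 1.10 for Csf1r, closer together than the 1.76, 1.38, 1.12 and 0.44 without it, and Cx3cr1 was at 0.34.

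**Figure D3:**
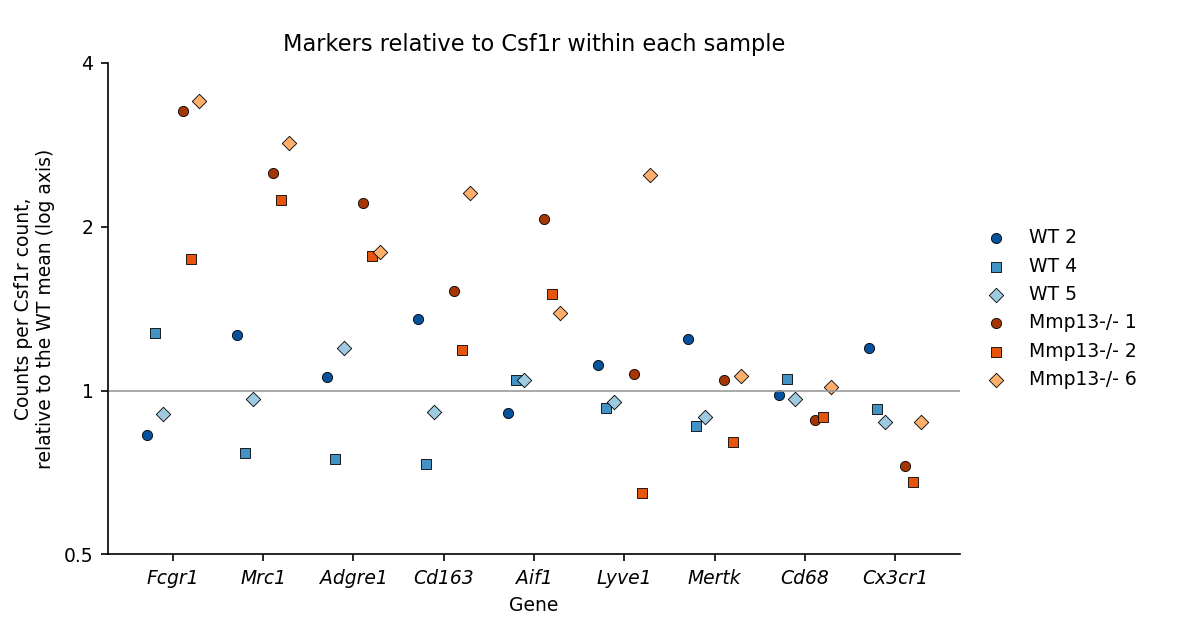
Estimated counts of 9 markers per count of Csf1r in each sample, without GC correction and relative to the WT mean of the ratio (log axis). Fcgr1, Mrc1, Adgre1 and Aif1 are higher in all 3 Mmp13-/- samples, and Cd163, Lyve1, Mertk, Cd68 and Cx3cr1 overlap between the genotypes.

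Relative to all leukocytes the picture was not the same. Pan-leukocyte genes summed to 103.2 to 168.7 CPM in WT and to 237.1 to 447.1 CPM in Mmp13-/-. Of the 10 genes, 6 were called as higher, beside 20.4% of all genes. Ptprc, which codes for CD45, went from 8.11, 9.39 and 11.4 CPM in WT to 68.7, 82.1 and 43.7 CPM in Mmp13-/-, a log2 fold change of 2.75 ± 0.24 (SE). The 10 macrophage markers summed to 123.6 to 149.6 CPM in WT and to 202.2 to 247.5 CPM in Mmp13-/-. Per pan-leukocyte count, the summed marker counts came to 1.45, 0.777 and 0.733 in WT against 0.568, 0.554 and 0.861 in Mmp13-/-, which overlap. Ratios to the pan-leukocyte count also rest on counts without GC correction. The share of all genes that separate in such a ratio was not determined. The correction moved the log2 fold change from 0.44 to 1.10 for Csf1r, 0.33 to 0.86 for Cd68 and 0.03 to 0.34 for Cx3cr1. The median of the pan-leukocyte genes moved from 1.27 to 1.62. Without the correction, Csf1r, Cd68 and Cx3cr1 per pan-leukocyte count were lower in every Mmp13-/- sample, and the other 7 markers overlapped. For Csf1r this ratio was 0.482, 0.317 and 0.284 in WT and 0.171, 0.190 and 0.242 in Mmp13-/-.

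Of 6 ligands of the markers, 1 was called as higher and 1 as lower, beside 20.4% and 9.68% of all genes. Csf1, the main growth factor of macrophages, was at 40.5, 42.7 and 31.5 CPM in WT against 25.8, 31.8 and 25.5 CPM in Mmp13-/-, and fell by 0.47 ± 0.16 (SE) on the log2 scale (adjusted p = 0.0356 by edgeR). Il34, the other ligand of the same receptor, was at -0.39 ± 0.23 and did not pass (adjusted p = 0.186 by edgeR). Cx3cl1, which codes for fractalkine, fell by 0.83 ± 0.16 on the log2 scale. The MERTK ligands moved apart. Gas6 fell by 1.06 ± 0.16 on the log2 scale, from 199.3, 248.3 and 226.8 CPM to 103.8, 116.3 and 103.7 CPM, and Pros1, which codes for protein S, rose by 0.89 ± 0.16. Hp, which codes for the haptoglobin whose complex CD163 binds, rose by 1.23 ± 0.29 on the log2 scale. After GC correction the falls of Csf1, Cx3cl1 and Gas6 did not pass, at 0.19, 0.05 and -0.22, and Pros1, at 0.49, and Hp, at 2.02, passed as higher.

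Among transcription factors of the macrophage lineage, 3 of 10 were called as lower and 1 as higher, beside 9.68% and 20.4% of all genes. Their median log2 fold change was -0.65, which was 0.16 after GC correction. Spi1 was at 4.88, 8.72 and 9.05 CPM in WT against 9.66, 13.3 and 9.37 CPM in Mmp13-/-. No sample of the genotypes overlapped, but the change of 0.52 ± 0.25 (SE) did not pass (adjusted p = 0.109 by edgeR); after GC correction it was 1.52 (adjusted p = 0.00223 by edgeR). Tfec, a factor of the MiT family found in macrophages and osteoclasts, rose by 2.91 ± 0.36 on the log2 scale. Its level in WT was low, at 0.267, 0.412 and 0.359 CPM. In Mmp13-/- sample 6 it was 1.61 times the background rate of odorant and vomeronasal receptor genes. The change of Tfec was 2.20 after GC correction and 1.90 with background subtraction as well. Maf and Cebpb, which are also expressed by cells outside the lineage, fell by 1.15 ± 0.19 and 1.75 ± 0.23 on the log2 scale, and by 1.12 and 0.76 after GC correction, which passed as well. Cebpa and Bhlhe41 were at -0.87 and -0.59 without the correction, below the 2-fold limit, and did not pass with it, at 0.25 and -0.53.

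Of 17 core macrophage and phagocyte genes, 9 were called as higher and 0 as lower, beside 20.4% and 9.68% of all genes. The median log2 fold change was 1.08. Lyz2, which codes for lysozyme M, rose from 30.4, 29.6 and 37.3 CPM to 274.5, 361.7 and 163.4 CPM, and Tyrobp, an adaptor of activating receptors, from 2.44, 1.95 and 2.24 to 16.1, 22.3 and 13.3 CPM. Both are also expressed in neutrophils. Msr1, a scavenger receptor, and Cd84, a homophilic leukocyte receptor, rose by 3.92 ± 0.51 and 3.02 ± 0.18 on the log2 scale. Msr1 was near the floor in WT, with 16.1, 2.0 and 5.99 counts. In Mmp13-/- sample 6 it was 2.8 times the background rate of odorant and vomeronasal receptor genes. Its change was 2.97 after GC correction. Apoe, the lipid carrier, was at -0.21 ± 0.17 and overlapped between genotypes, and Lgals3, a galectin that many cells make, was at -0.60 ± 0.22. After GC correction both signs turned, to 0.82 for Apoe, which passed, and to 0.13 for Lgals3, which did not. With that correction 13 of the 17 genes were called as higher, beside 16.3% of all genes.

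Of 11 perivascular and resident macrophage genes tested, of 12 listed, 6 were called as higher and 0 as lower. The shares of all genes were 20.4% and 9.68%, and the median of the list was 1.07. F13a1, the coagulation factor XIII subunit made by such macrophages, rose from 7.75, 6.31 and 7.58 CPM in WT to 36.8, 47.3 and 38.0 CPM in Mmp13-/-. The level of the 3 Mmp13-/- samples was similar and well apart from WT, with a log2 fold change of 2.50 ± 0.16 (SE). Wfdc17, Timd4 and Ccl24 were called too, at WT levels of at most 0.353 CPM, where single reads carry much of the value. Stab1, a clearance receptor of macrophages and of some endothelium, was at -0.59 ± 0.16, and Cbr2, a carbonyl reductase, was at -0.69 ± 0.18. Both turned sign after GC correction, to 0.29 and 0.17, and did not pass.

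Monocyte genes had a median of 2.16, with 8 of 11 called as higher and 1 as lower, beside 20.4% and 9.68% of all genes. Ccr2, the chemokine receptor by which monocytes leave the marrow, was at 1.24, 0.686 and 1.68 CPM in WT against 17.5, 19.8 and 11.5 CPM in Mmp13-/-, a log2 fold change of 3.77 ± 0.32 (SE). Chil3 and Plac8 rose by 4.46 ± 0.35 and 3.12 ± 0.21 on the log2 scale. Nr4a1, a factor needed by patrolling monocytes and induced by stress in many cells, fell by 1.59 on the log2 scale, and by 0.74 after GC correction, which passed as well. Ace, at -0.23, and Itgal, at 0.61, did not pass, but after GC correction both passed as higher, at 0.53 and 1.17. Of 4 other genes listed for receptors of IgG, 3 were called as higher together with Fcgr1, beside 20.4% of all genes. Fcgr3 went up by 2.56 ± 0.22, Fcgr4 by 2.69 ± 0.56 and the inhibitory Fcgr2b by 1.48 ± 0.17 on the log2 scale, whereas Fcgrt, the neonatal receptor that many tissues use to recycle IgG, was at -0.52 ± 0.16, and at 0.26 after GC correction, which did not pass.

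Lists of macrophage function were mixed, and their counts stand beside 20.4% of all genes called as higher and 9.68% as lower. Of 10 tested genes of classical activation, 4 were called as higher and 0 as lower, with Cd86, Ptgs2, Il1b and Il12a at log2 fold changes of 2.83, 2.20, 1.39 and 1.28, whereas Nos2, at -0.88, and Cxcl9, at 1.72, did not pass. Of 6 tested genes of alternative activation, Retnla was called, at 2.68 ± 0.58. Arg1, the arginase of that state, was at 35.2, 31.2 and 66.0 CPM in WT and 88.7, 26.4 and 41.5 CPM in Mmp13-/-, so that the WT range lay within that of Mmp13-/-. For engulfment of dying cells 1 of 9 was called as higher, Stab2 at 1.09 ± 0.24, and 1 as lower, Adgrb1 at -1.16 ± 0.22, which was -0.03 after GC correction. For iron and heme handling 1 of 7 was called as higher, Spic, the factor of red pulp macrophages, at 3.48 ± 0.57, and 1 as lower, Ftl1, at -1.11 ± 0.19, which was -0.17 after GC correction. Medians of these last lists were -0.63 for both, and 0.01 and 0.11 after GC correction.

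Markers of other cells of the blood and the marrow were called as higher in part or in full. Of these, 0 were called as lower over 2-fold, and over all genes the shares were 20.4% higher and 9.68% lower. Among neutrophil markers 10 of 11 were called as higher, with sums of 146.7 to 299.9 CPM in WT and 732.5 to 1777 CPM in Mmp13-/-. All 9 eosinophil markers and all 8 B cell markers tested were called as higher, and so were 6 of 9 T and NK cell markers, 4 of 10 dendritic cell markers and 2 of 6 tested mast cell markers. The T and NK cell count was 3 with GC correction, 2 with background subtraction, 2 with both and 4 without Mmp13-/- sample 6, and the median of that list went from 1.95 to 0.67 when at least 10 counts were required in every sample. Mast cell markers gave 4 with GC correction and 1 with background subtraction. Of all genes, 16.3% were called as higher with GC correction, 16.2% with background subtraction and 11.2% with both. Without Mmp13-/- sample 6 the share was 19.7%. Osteoclast markers, of the lineage that shares Csf1r with macrophages, were called as higher for 7 of 10, and Ctsk, the collagen-degrading cathepsin K, rose from 44.3, 38.7 and 38.5 CPM to 171.0, 292.8 and 165.6 CPM. Erythroid markers, 4 of 8 tested called as higher and 8 with GC correction, summed to 865.9 to 1389 CPM in WT and 2041 to 3817 CPM in Mmp13-/-. Skeletal muscle markers summed to 24430 to 32360 CPM in WT and 4207 to 10510 CPM in Mmp13-/-, and epithelial markers to 1893 to 3982 and 956.8 to 1545 CPM. Odontoblast markers were present in all samples and summed to 54440 to 61110 CPM in WT and 16460 to 21910 CPM in Mmp13-/-. Collagen genes carry that sum, and of the 7 markers 3 were called as higher and 3 as lower, with a median of -0.22, or 0.13 after GC correction. None of the sums given here overlapped between the genotypes. The part of these cells in the macrophage markers was not tested.

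**Figure D4:**
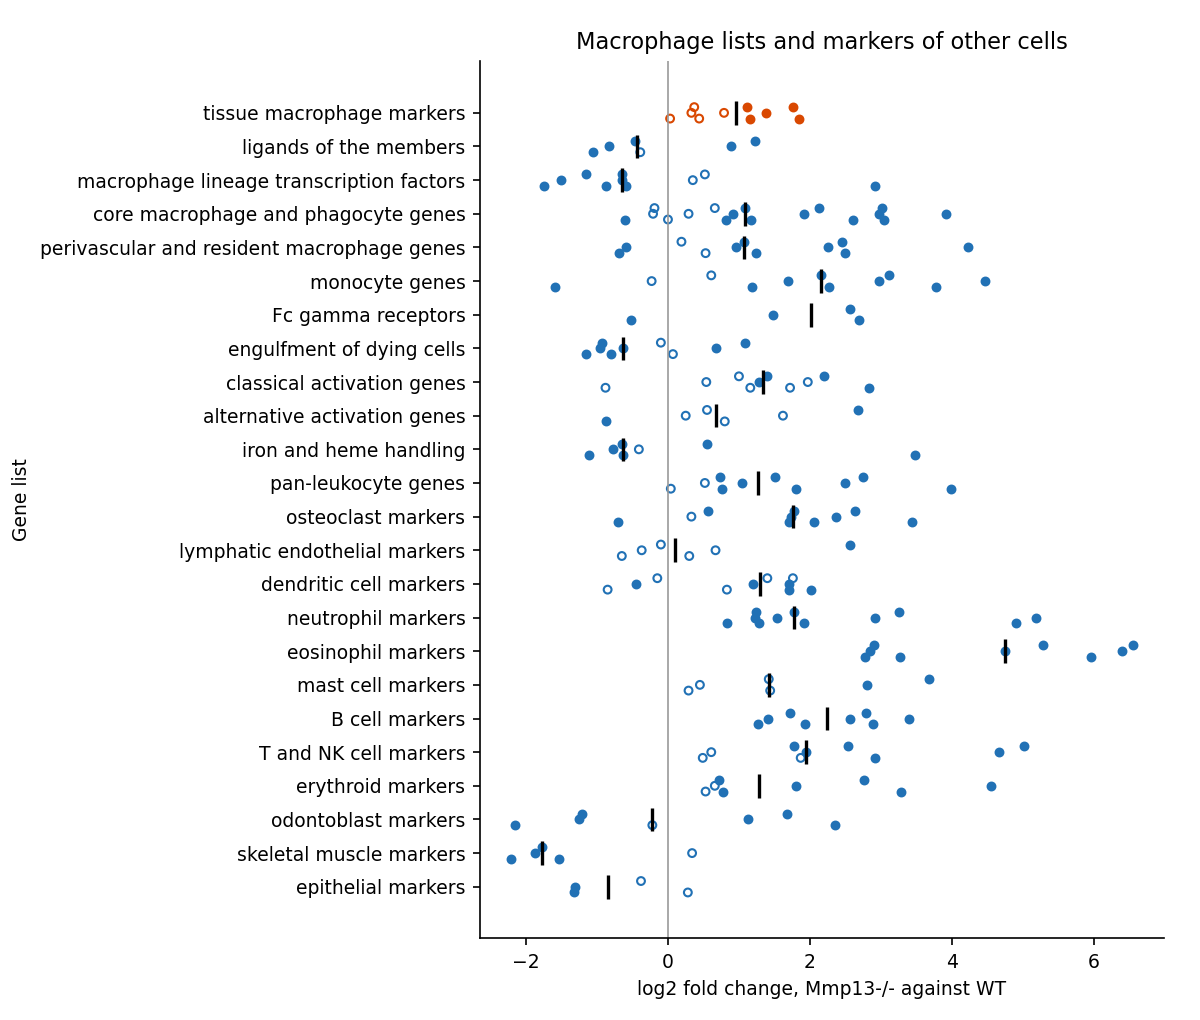
Log2 fold change, Mmp13-/- against WT, of each tested gene in the macrophage marker set (orange), 10 other macrophage lists and markers of other cells (blue). Filled points passed an adjusted p under 0.05 at any fold and the black bar is the median of the list, which is 0.96 for the markers, 2.16 for monocyte genes and 4.75 for eosinophil markers.

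The genes whose profile over the 6 samples was nearest to the mean profile of the markers were D1Ertd622e, Zfp277, Nsun6, Fam103a1 and 2810474O19Rik. Their root mean square difference from it was 0.051 to 0.064 on the log2 scale. The markers themselves were farther from their own mean, from 0.27 for Cd163 to 0.54 for Fcgr1. The marker mean, centred on the 6 samples, was -0.32, -0.49 and -0.54 in WT and 0.38, 0.52 and 0.46 in Mmp13-/-, in the sample order used above.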

How the data were processed

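RNA of 3 WT and 3 Mmp13-/- pulps was sequenced. Genotype, taken from each sample's label, set the groups; labels number the samples 2, 4 and 5 in WT and 1, 2 and 6 in Mmp13-/-. An estimated count for every Ensembl gene was deposited, which Strand NGS had produced from alignments. Normalized log2 values were also deposited by the authors, scaled by size factors and centred per gene. mm10 and DESeq are named in the submitters' processing notes. Aligner settings and annotation release are not given in the sources used here. Samples are described as independent biological ones, without saying whether each is 1 animal.

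For testing, counts were rounded and passed to edgeR 4.0.16 in R 4.3.3, with TMM factors, filterByExpr on genotype, a quasi-likelihood test without covariates, and Benjamini-Hochberg adjustment across 24534 genes. Library totals lay between 21561420 and 29980236. The SE is the log2 fold change over the root of F, and no p was adjusted over the markers alone. GENCODE M21 (GRCm38) gave positions, exon lengths and GC content for 99.8% of genes, and RefSeq gave promoters. GC correction used loess offsets per sample (span 0.4, genes with mean log2 CPM above 3). Background was measured as counts per exon kilobase over 1459 odorant and vomeronasal receptor genes. Repeat genes are 13 genes found from the gene of highest count in any Mmp13-/- sample. Over 50% of their 20-base words were among those of that gene or of genes matched to it in repeated rounds. Of 2 Itgam entries the one with counts was used.

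Alternatives comprised RLE or upper-quartile factors, unscaled totals, factors that skip repeat genes and the 10 most abundant genes, no filter, a minimum of 10 counts per sample, DESeq2 1.42.0, limma 3.58.1 applied to the deposited log2 values, the study's own per-gene test as far as stated, GC correction, background subtraction, both steps, and omission of each sample. Simulated data were used to test edgeR with TMM, RLE and upper-quartile factors, DESeq2, limma and the study's test. GC correction and background subtraction were each tested so too, and the other alternatives were not. Markers and lists were chosen with earlier results of these data known. Beyond the markers, named genes are Mmp13, the ligands, Spi1, in each list up to 4 called genes of largest change and up to 2 others of highest level, and the 5 protein-coding genes of nearest profile. Nr4a1 was added after its value was seen. Values of 2 genes that this rule selects are not reported here.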

Additional observations from a re-analysis of the deposited data

How the results depend on the processing

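Adgre1, Mrc1, Cd163, Aif1 and Fcgr1 kept their direction and an adjusted p under 0.05 in all 12 alternative settings and in all 6 fits that left out a sample, and the highest of these adjusted p, from any of the tools used, was 0.0444, for Aif1. The number of markers called was 5 to 6 over the alternatives and 4 to 5 with a sample left out. At any fold it was 8 with upper-quartile factors, GC correction, background subtraction and both together, and 5 to 6 with a sample left out. Cx3cr1, from -0.16 to 0.10 with a sample left out, turned to -0.08 without a filter, -0.03 in limma, -0.03 in the study's procedure, -0.04 without WT sample 4, -0.16 without WT sample 5 and -0.14 without Mmp13-/- sample 2. Csf1r passed in 8 of 12 alternatives, with DESeq2 at 0.45 (adjusted p = 0.0284).

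Over all genes, 7381 were called. The count was 14325 without a filter, 4666 with at least 10 counts, 15407 in the study's procedure, 4813 with GC correction and 3551 with background subtraction as well. Calls as higher, 5006, were 11258 without a filter, 3006 with at least 10 counts, 12332 in the study's procedure and 2567 with both steps, and calls as lower, 2375, were 1338 with upper-quartile factors, 802 with GC correction and 984 with both steps. With a sample left out these ranged from 7146 to 8751, from 4826 to 5725 and from 2320 to 3026. The cause was not tested. Across all genes the median change, 0.104 on the log2 scale, was 1.30 without a filter, 0.649 in the study's procedure, 0.315 with upper-quartile factors, 0.210 with total counts, 0.217 with GC correction and 0.0288 with at least 10 counts, the lowest. Of 23 other lists, 16 had a median above 0, and 15 to 21 under the alternatives and 15 to 16 with a sample left out.

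No paired analysis was possible because the genotypes share only the replicate number 2. Each genotype has 3 samples, and background reads and depth limit the low markers Fcgr1 and Aif1 most in Mmp13-/- sample 6.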
